A study of Homo sapiens with 6 samples.

Results

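The mitochondrial genome of human cells carries 37 genes, and all 37 were found among the 60708 genes of the deposited count table by gene symbols that start with MT-. They comprised 13 mRNA genes, 2 rRNA genes and 22 tRNA genes. All 37 gene IDs matched the reference annotation of GRCh38. The counts came from Caki-1, an established line of human clear cell carcinoma in which VHL is intact. The 3 VC samples carried the WT genotype and were vector controls. The study's methods name a lentiviral CRISPR vector for control cells where they describe double and triple knockouts. They do not name the vector of these VC samples. The 3 VHL-KO samples came from cells infected with a lentiviral CRISPR vector carrying an sgRNA against VHL. Knockout cells were selected with puromycin and single clones were picked by immunoblot, so effects of the clone and of VHL loss cannot be told apart. Which of the listed guides made the clone is not stated, and replicates are not said to be separate cultures. P-values therefore measure the spread between these samples.

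The VC samples held 31789923, 28463579 and 34881739 counts on genes in replicates 1 to 3, and the VHL-KO samples held 29139722, 22805385 and 22628246. Levels are given as CPM, counts scaled to a common depth. A gene with 0 counts could lie at up to 3 counts, which is 0.086 CPM of the total in the deepest sample and 0.133 in the shallowest. Intervals and floors cover counting error only, because they take each read as a separate molecule, which PCR duplicates would not be. VHL itself, the recognition subunit of the ubiquitin ligase that marks HIF alpha proteins for degradation, had counts of 1454, 1124 and 1522 in the VC replicates and of 929, 657 and 650 in the knockout. Every VHL-KO sample lay below every VC sample. After scaling with edgeR's TMM factors, the mean was 40.1 ± 2.38 CPM in VC and 31.9 ± 2.49 CPM in VHL-KO (SD over 3 samples). Its log2 fold change of -0.33 had an SE of 0.11 and an adjusted p of 0.0109 (edgeR quasi-likelihood test, Benjamini-Hochberg). This call was lost with upper quartile factors (-0.22), when VC replicate 1 was left out (-0.28) and when VHL-KO replicate 2 was left out (-0.30), and was kept at -0.53 with library size alone and at -0.20 with GC and length offsets. An edit need not lower the RNA, so this count is a weak check of the labels.

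CA9, carbonic anhydrase 9 and a known target of HIF, had counts of 0, 0 and 2 in VC and of 288, 247 and 233 in the knockout. The other marker of clear cell carcinoma, NDUFA4L2, known as a further HIF target, had counts of 65, 55 and 35 in VC and of 31, 10 and 19 in VHL-KO. It was lower, at a log2 fold change of -0.86 (SE 0.37, edgeR adjusted p = 0.0473), although its CPM overlapped between groups. Of 7 markers of kidney epithelium, 6 were tested, with 4 higher, 1 lower and a median log2 fold change of 0.44, where 28.5% of all tested genes were higher and 31.2% lower. Their summed level was 1614, 1829 and 1458 CPM in VC and 2329, 2249 and 2262 CPM in VHL-KO. The largest log2 fold changes went opposite ways, 3.42 for the cadherin gene CDH16 and -1.42 for EPCAM, which had at most 56 counts in any sample. The keratin gene KRT8 was the most abundant of the 7 markers, with 647, 765 and 597 CPM in VC and 967, 943 and 944 CPM in VHL-KO. PAX2 had 0 counts in every sample, while PAX8, a transcription factor of the kidney lineage, had between 12971 and 16327 counts per sample. Both leukocyte markers were at 0 or 1 count in every sample, with CD3E at 0 in all. The endothelial markers PECAM1 and VWF had at most 14 counts in any sample, though PECAM1, with counts of 1, 5 and 0 in VC and of 14, 7 and 9 in VHL-KO, was called higher (log2 fold change 2.73, SE 0.90, edgeR adjusted p = 0.0117). Of the 3 fibroblast markers COL1A2 had at most 1 count, and the summed level was 43.3, 47.2 and 37.1 CPM in VC and 29.8, 27.1 and 25.5 CPM in VHL-KO, most of it from COL1A1. COL1A1 and PDGFRB were both lower, at log2 fold changes of -0.42 and -1.94.

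Human mitochondrial DNA is a circle that is read from a promoter on each strand into long precursor RNAs. In those precursors, tRNAs lie between most of the rRNAs and mRNAs, and enzymes that release the tRNAs also set the ends of their neighbours. All proteins encoded there are subunits of respiratory chain complexes I, III and IV or of the ATP synthase, complex V, and their partner subunits come from nuclear genes. Clear cell carcinoma of the kidney, where VHL is often lost, is known for low mitochondrial respiration.

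Counts on the mitochondrial genes were 2284556, 1723096 and 2574256 in VC and 3137169, 2196405 and 2282561 in VHL-KO. As a share of all counts this was 7.19%, 6.05% and 7.38% in VC and 10.8%, 9.63% and 10.1% in VHL-KO. The lowest VHL-KO sample stood above the highest VC sample, and the widest 95% Wilson interval reached 0.0124 percentage points to either side. The mean share was 6.87% ± 0.716 in VC and 10.2% ± 0.571 in VHL-KO (SD, n = 3 each), a difference of 3.29 percentage points and a ratio of 1.48 (exact permutation, two-sided, p = 0.1, which is the floor of a test of 3 samples against 3). In bulk samples, more mitochondrial RNA per cell cannot be told apart from a change in the cells that make up the sample or from less nuclear-encoded RNA. The 20 most abundant nuclear genes also took a larger share of all counts in VHL-KO, 12.1%, 11.8% and 11.5% against 8.85%, 9.44% and 8.50% in VC. With those genes left out of the denominator, the mitochondrial share differed by 3.97 percentage points.

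**Figure D1:**
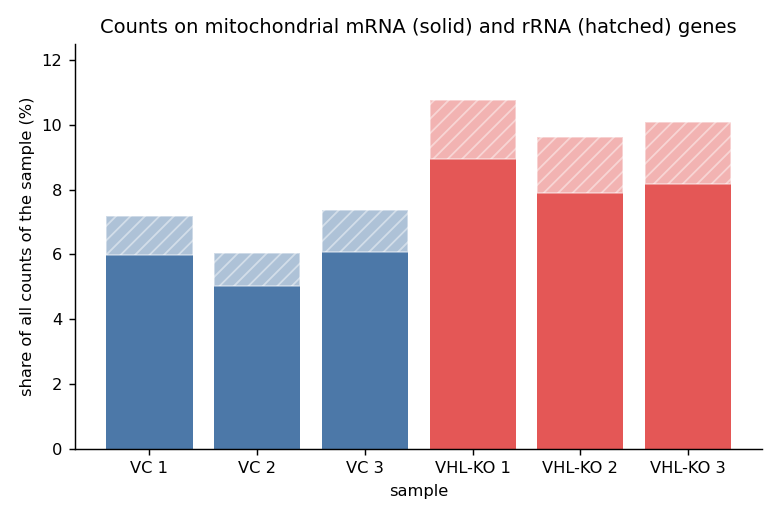
Share of all counts of each sample (%) on the 13 mitochondrial mRNA genes (solid) and the 2 rRNA genes (hatched), for 3 VC samples (blue) and 3 VHL-KO samples (red). The combined bars reach between 6.05% and 7.38% in VC and between 9.63% and 10.8% in VHL-KO.

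Of the 37 genes, 24 reached 10 reads in at least 1 sample and were tested, and 16 of those were higher in VHL-KO, 2 were lower and 6 were not called. In all, 17401 genes were tested, of which 28.5% were higher and 31.2% lower at an adjusted p under 0.05. All 18 calls on mitochondrial genes kept their direction and their side of that threshold under 16 alternatives of test, filter, scaling and replicates, but scaling to the mitochondrial total of each sample left 4 higher and 8 lower. That scaling compares each gene with the other mitochondrial genes, so in what follows higher and lower mean relative to all genes unless a share is named. The median log2 fold change of the 13 mRNAs was 0.70 (turning to -0.06 when scaled to the mitochondrial total), against -0.01 for all tested genes. With library size alone the median of all genes moved to -0.20 and that of the mRNAs to 0.51, and with upper quartile factors the median of all genes moved to 0.10. Of the 20 genes with the highest mean CPM in the table, 9 were mitochondrial.

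**Figure D2:**
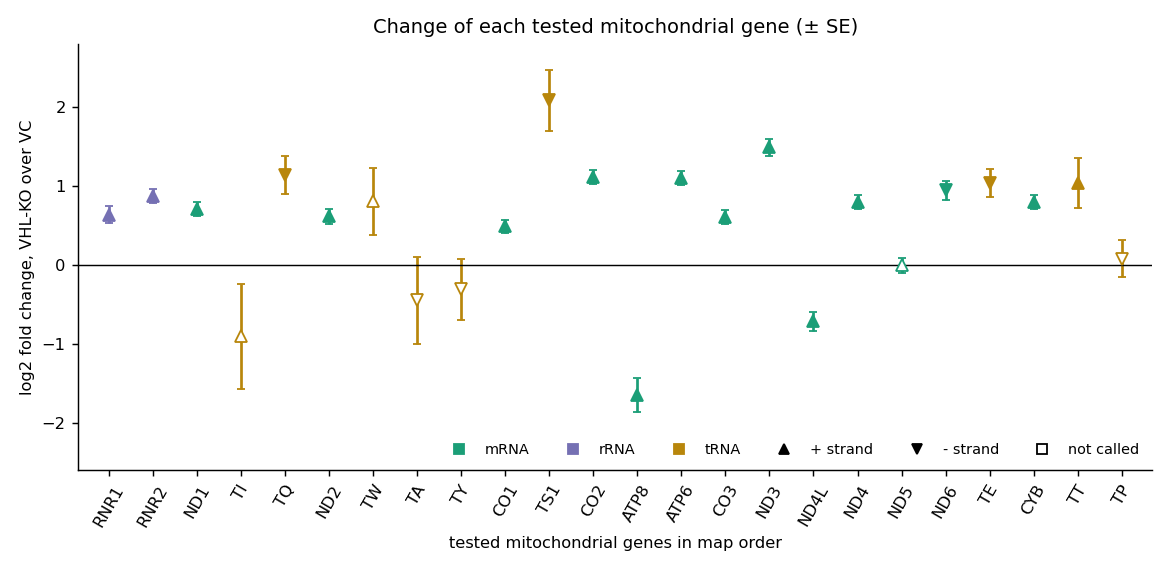
Log2 fold change of VHL-KO over VC (vertical axis, ± SE) for the 24 tested mitochondrial genes in map order, coloured by class, with the triangle pointing up for the + strand and down for the - strand and open symbols for genes not called. Most genes lie between 0.49 and 1.49, whereas of the genes called MT-ATP8 at -1.65 and MT-ND4L at -0.72 lie below 0, as do MT-TI, MT-TA, MT-TY and MT-ND5, which were not called; with the mitochondrial total as library size MT-RNR1, MT-ND1, MT-ND2, MT-CO1, MT-CO3 and MT-TP change sign.

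Several of these genes share bases, which matters for counts of short reads. MT-ATP8 (chrM:8366-8572) and MT-ATP6 (chrM:8527-9207) overlap by 46 bases, 22.2% of MT-ATP8, which leaves 161 of its bases outside the overlap. MT-ND4L (chrM:10470-10766) and MT-ND4 (chrM:10760-12137) overlap by 7 bases, which leaves 290 bases of MT-ND4L. MT-ATP6 and MT-CO3 (chrM:9207-9990) share 1 base. The joins are shown from chrM:8497-8602, chrM:10730-10796 and chrM:9177-9237 of GRCh38 on the + strand with 30 bases to each side. MT-ATP8 and MT-ND4L, which moved against the rest, end at the first of these joins and at the next, while both genes at the last were higher, MT-CO3 changing sign when scaled to the mitochondrial total. Capitals mark the bases that belong to both genes.
MT-ATP8 and MT-ATP6: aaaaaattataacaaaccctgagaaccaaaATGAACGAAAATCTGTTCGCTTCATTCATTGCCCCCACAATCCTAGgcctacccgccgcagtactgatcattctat
MT-ND4L and MT-ND4: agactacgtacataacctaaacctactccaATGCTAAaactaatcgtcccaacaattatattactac
MT-ATP6 and MT-CO3: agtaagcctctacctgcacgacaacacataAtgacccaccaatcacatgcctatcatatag
At both of the first joins the capitals open with the start codon of the downstream gene and end with the stop codon of the upstream gene. As background, each of these pairs is known to stay together on a single mature mRNA.

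The rRNAs form the core of the mitochondrial ribosome. Both were higher in VHL-KO, though relative to the mitochondrial total MT-RNR1 turned to -0.14 and neither was called. MT-RNR2 (ENSG00000210082.2, chrM:1671-3229), the large-subunit rRNA, had 9330, 7622 and 10029 CPM in VC and 17182, 15568 and 16694 CPM in VHL-KO. All VHL-KO samples were above all VC samples, with a log2 fold change of 0.87 (SE 0.09, edgeR quasi-likelihood with Benjamini-Hochberg, adjusted p = 1.5e-08). MT-RNR1 (ENSG00000211459.2, chrM:648-1601), the small-subunit rRNA, had 1722, 2293 and 1826 CPM in VC and 2709, 2799 and 3563 CPM in VHL-KO. Its groups did not overlap either, although VC replicate 2 and VHL-KO replicate 3 stood above the others of their group, and its log2 fold change was 0.64 (SE 0.11, edgeR adjusted p = 1.8e-05). Per kilobase of gene the mean level of MT-RNR2 was 5769 CPM in VC and 10572 CPM in VHL-KO, and that of MT-RNR1 was 2041 and 3169 CPM. Counts of MT-RNR1 per 100 counts of MT-RNR2 were 18.5, 30.1 and 18.2 in VC and 15.8, 18.0 and 21.3 in VHL-KO. These ranges overlap (two-sided exact permutation test, p = 0.5), and the difference of means went from -3.89 to 0.03 per 100 without VC replicate 2, the sample with 30.1. Of mitochondrial counts, the rRNAs made up 16.5%, 17.1% and 17.5% in VC and 16.9%, 18.1% and 18.9% in VHL-KO, which also overlap (exact permutation test, p = 0.3). How rRNA was treated in library preparation is not stated in the sources used here. rRNA levels and shares are therefore compared between groups only. The size of a share is not read as the amount of rRNA relative to mRNA in the cells.

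Complex I, the NADH dehydrogenase at the entry of the respiratory chain, takes 7 subunits from the mitochondrial genome. Of their mRNAs 5 were higher, 1 was lower and 1 was not called, where 28.5% of all tested genes were higher and 31.2% lower. MT-ND1 and MT-ND2 changed sign when scaled to the mitochondrial total. MT-ND3 (ENSG00000198840.2, chrM:10059-10404), a small subunit that lies where the membrane arm meets the peripheral arm, had 907, 727 and 907 CPM in VC and 2744, 2297 and 2086 CPM in VHL-KO. Each VHL-KO sample had more than double the level of each VC sample, with a log2 fold change of 1.49 (SE 0.10, edgeR adjusted p = 1.2e-11) that was the highest among the 13 mRNAs. MT-ND1, MT-ND2 and MT-ND4, all core subunits of the membrane arm, had log2 fold changes of 0.70, 0.61 and 0.80, with edgeR adjusted p-values of 2.2e-07, 5.3e-06 and 4.7e-08. All of them had non-overlapping groups, and MT-ND4 was the most abundant complex I mRNA per kilobase in VHL-KO, with 9619 CPM against 5542 in VC. MT-ND5 (ENSG00000198786.2, chrM:12337-14148), the longest mRNA at 1812 nt and a proton-pumping subunit, had 1743, 1438 and 1901 CPM in VC and 1746, 1548 and 1767 CPM in VHL-KO. These values overlap, and its log2 fold change was -0.01 (SE 0.10, edgeR adjusted p = 0.961). Next to it on the map, MT-ND6 on the opposite strand had 542, 359 and 568 CPM in VC and 1037, 891 and 907 CPM in VHL-KO, without overlap.

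MT-ND4L (ENSG00000212907.2), a small membrane subunit of complex I, had counts of 14431, 10749 and 21331 in VC and of 7610, 5340 and 6112 in VHL-KO. In CPM this was 422, 362 and 562 against 285, 247 and 287. Every VHL-KO sample was below every VC sample, with a log2 fold change of -0.72 (SE 0.12, edgeR adjusted p = 1.0e-05). Its partner on the same mRNA, MT-ND4 (ENSG00000198886.2), had 8234, 6645 and 8030 CPM in VC and 14321, 12383 and 13060 CPM in VHL-KO. Counts of MT-ND4L per 100 of MT-ND4 were 5.13, 5.44 and 6.99 in VC and 1.99, 2.00 and 2.19 in VHL-KO. The VHL-KO values lay close together and far below those of VC, a mean ratio lower by a factor of 2.84 (two-sided exact permutation test, p = 0.1, the smallest possible). Per kilobase MT-ND4L stood at 1510 CPM in VC and 919 CPM in VHL-KO, below MT-ND4 in both groups.

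Complex V makes ATP, and both of its mitochondrial subunits belong to the membrane part, MT-ATP6 lining the proton path and MT-ATP8 being a small accessory subunit. MT-ATP6 (ENSG00000198899.2) had 3312, 2828 and 3234 CPM in VC and 7640, 6131 and 6330 CPM in VHL-KO. MT-ATP8 (ENSG00000228253.1) had counts of 9319, 3356 and 12262 in VC and of 1722, 1701 and 1768 in VHL-KO, which is 273, 113 and 323 CPM against 64.4, 78.8 and 82.9 CPM. The members of this pair thus moved in opposite directions without overlap of the groups, and VC replicate 2 was the VC sample nearest to VHL-KO for MT-ATP8. The log2 fold change was 1.10 for MT-ATP6 (SE 0.09, edgeR adjusted p = 3.4e-10) and -1.65 for MT-ATP8 (SE 0.21, edgeR adjusted p = 3.2e-07). Counts of MT-ATP8 per 100 of MT-ATP6 were 8.24, 3.99 and 9.98 in VC and 0.843, 1.29 and 1.31 in VHL-KO. The group means differed by a factor of 6.46 (two-sided exact permutation test, p = 0.1), and the difference in counts per 100 stayed between -7.97 and -4.97 when each replicate was left out in turn. A read inside shared bases may be dropped or assigned to either gene depending on the counting mode, which is not given in the sources used here. The part of read assignment in the ratios of both pairs was not tested.

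Complex III has a single mitochondrial subunit, cytochrome b. MT-CYB (ENSG00000198727.2, chrM:14747-15887) had 4169, 3579 and 4028 CPM in VC and 7311, 6298 and 6889 CPM in VHL-KO. The groups did not overlap, with a log2 fold change of 0.80 (SE 0.09, edgeR adjusted p = 2.2e-08). Complex IV, cytochrome c oxidase, takes its 3 catalytic core subunits from the mitochondrial genome, and all 3 mRNAs were higher. Among all tested genes 28.5% were higher. When scaled to the mitochondrial total both MT-CO1 and MT-CO3 changed sign, MT-CO1 being called lower (-0.28, adjusted p = 0.0432) and MT-CO3 not called. MT-CO2 (ENSG00000198712.1, chrM:7586-8269), which accepts electrons from cytochrome c, had 8002, 6480 and 7433 CPM in VC and 17461, 14899 and 15094 CPM in VHL-KO. Its lowest VHL-KO sample was well above its highest VC sample, with a log2 fold change of 1.11 (SE 0.09, edgeR adjusted p = 1.7e-10). MT-CO1 (ENSG00000198804.2, chrM:5904-7445), which holds the oxygen-reducing centre, had 10465, 10169 and 11225 CPM in VC and 15812, 13825 and 15001 CPM in VHL-KO. It too was higher in every VHL-KO sample, with a smaller log2 fold change of 0.49 (SE 0.08, edgeR adjusted p = 1.5e-05) that was 0.29 with library size alone. Counts of MT-CO1 per 100 of MT-CO2 went from 131, 157 and 151 in VC to 90.6, 92.8 and 99.4 in VHL-KO, without overlap (two-sided exact permutation test, p = 0.1). MT-CO3 (ENSG00000198938.2), a structural core subunit, had a log2 fold change of 0.61 (SE 0.09, edgeR adjusted p = 1.1e-06). Per kilobase MT-CO2 had the highest mean of the 13 mRNAs in both groups, 10680 CPM in VC and 23126 CPM in VHL-KO, and MT-CO3 came next with 10076 and 15370 CPM. In VC these means lay within the SD of 1125 CPM of MT-CO2, while in VHL-KO they were several SDs apart.

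**Figure D3:**
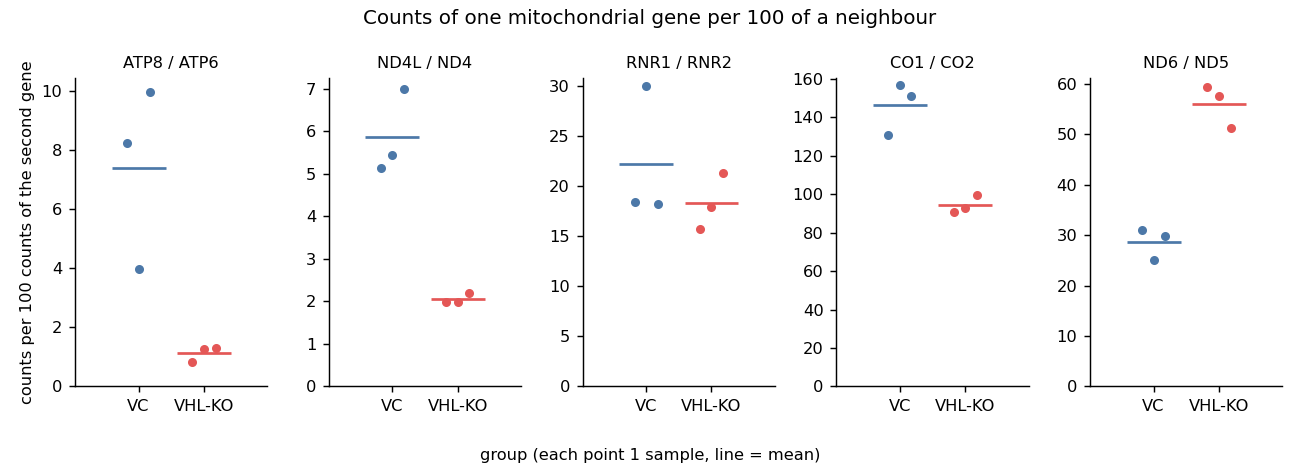
Counts of 1 mitochondrial gene per 100 counts of another in each sample (points) with group means (lines), for 5 pairs in 3 VC (blue) and 3 VHL-KO (red) samples. MT-ATP8, MT-ND4L and MT-CO1 fell relative to their partners without overlap of the groups, MT-ND6 per 100 of MT-ND5 was above 51 in VHL-KO and at most 31.1 in VC, and MT-RNR1 per 100 of MT-RNR2 overlapped.

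Shares of the mitochondrial counts take the common rise out of the comparison. MT-CO2 went from 11.97%, 11.18% and 10.97% of mitochondrial counts in VC to 14.87%, 14.64% and 14.11% in VHL-KO. MT-CO1 went from 15.65%, 17.54% and 16.56% to 13.47%, 13.59% and 14.02%. The order of these genes was thus MT-CO1 above MT-CO2 in each VC sample and the reverse in each VHL-KO sample. MT-ND3 went from 1.36%, 1.25% and 1.34% to 2.34%, 2.26% and 1.95%. MT-ND5 went from 2.61%, 2.48% and 2.81% to 1.49%, 1.52% and 1.65%. Among the 15 mRNA and rRNA genes, 4 had higher shares in VHL-KO without overlap of the samples: MT-CO2, MT-ATP6, MT-ND3 and MT-ND6. Their log2 ratios of mean shares were 0.36, 0.34, 0.73 and 0.20, with that of MT-ND6 at 0.08 without VC replicate 2. Another 6 had lower shares without overlap: MT-CO1, MT-CO3, MT-ND2, MT-ND5, MT-ND4L and MT-ATP8. Their log2 ratios were -0.28, -0.15, -0.14, -0.76, -1.47 and -2.36. The shares of MT-RNR1, MT-RNR2, MT-ND1, MT-ND4 and MT-CYB overlapped between groups. By counts over the mitochondrial total, 9.54% of the 17401 tested genes were higher in VHL-KO without overlap and 60.7% were lower, and in CPM these portions were 31.2% and 33.5%. Of the tested genes 17377 were nuclear and lie outside the mitochondrial pool. The portions over all genes are therefore not a like measure for shares inside that pool. For each of the 10 without overlap the two-sided exact permutation test gave p = 0.1, the smallest it can give.

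**Figure D4:**
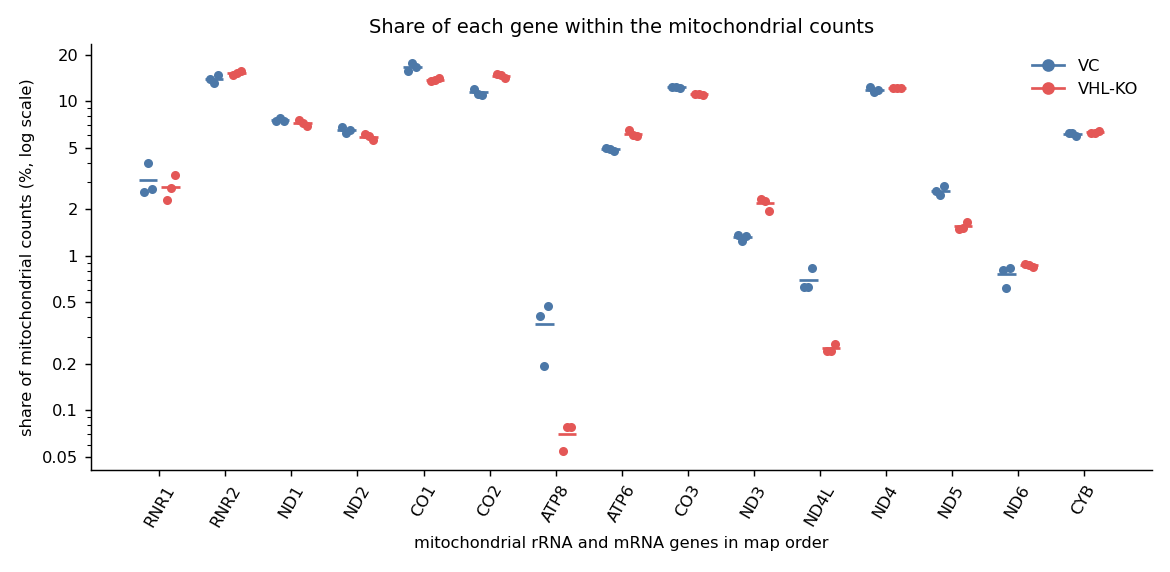
Share of mitochondrial counts (%, log scale) of each rRNA and mRNA gene in map order, with 1 point per sample and a line at the mean for VC (blue) and VHL-KO (red). MT-ATP8 and MT-ND4L show the widest gaps, with mean shares of 0.360% and 0.695% in VC and 0.0699% and 0.251% in VHL-KO.

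tRNA genes took few counts, between 609 and 1094 per sample in all, or 0.0221% to 0.0479% of mitochondrial counts. Their share overlapped between groups (two-sided exact permutation test, p = 1). Of the 22, 7 had no count in any sample: MT-TV, MT-TK, MT-TG, MT-TR, MT-TH, MT-TL2 and MT-TN. A further 6 had at most 5 counts in any sample and were not tested. That leaves 9 tested, of which 4 were higher and the other 5 not called, where 28.5% of all tested genes were higher. Genes of 59 to 75 nt offer few positions to a read, so low counts do not mean that the tRNAs were absent from the cells. MT-TP, MT-TQ and MT-TE, the tRNAs for proline, glutamine and glutamate, had the highest mean counts. MT-TP had counts of 224, 224 and 363 in VC and of 157, 123 and 290 in VHL-KO, a log2 fold change of 0.08 (SE 0.24, edgeR adjusted p = 0.787) with overlapping groups. That value was -0.44 when VHL-KO replicate 3 was left out (adjusted p = 0.062) and -0.11 with library size alone. MT-TE had counts of 113, 104 and 138 in VC and of 189, 146 and 161 in VHL-KO. In CPM it was higher in each VHL-KO sample than in any VC sample, with a log2 fold change of 1.03 (SE 0.18, edgeR adjusted p = 2.1e-05). MT-TQ had counts of 107, 175 and 177 in VC and of 150, 235 and 293 in VHL-KO. Its CPM overlapped between groups, from 3.13 to 5.89 in VC and from 5.61 to 13.7 in VHL-KO, and the log2 fold change was 1.14 (SE 0.25, edgeR adjusted p = 3.2e-04). MT-TT, the tRNA for threonine, had counts of 32, 18 and 51 in VC and of 49, 38 and 52 in VHL-KO. Its groups did not overlap in CPM, with a log2 fold change of 1.04 (SE 0.32, edgeR adjusted p = 0.00653). The other 4 tested tRNAs, MT-TI, MT-TW, MT-TA and MT-TY, were not called, with log2 fold changes from -0.91 to 0.81 and at most 38 counts in any sample. Scaled to the mitochondrial total, the calls for MT-TE, MT-TQ and MT-TT were lost, and MT-TI (-1.65), MT-TA (-1.16), MT-TY (-1.06) and MT-TP (-0.67) were called lower.

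MT-TS1, a tRNA for serine, had counts of 42, 29 and 68 in VC and of 85, 58 and 244 in VHL-KO. VHL-KO replicate 3 held most of the knockout's counts. The log2 fold change of 2.08 (SE 0.38, edgeR adjusted p = 4.7e-05) became 1.13 without that sample. Over the alternatives other than the mitochondrial total, its adjusted p ranged from 1.2e-16 to 0.00597. The gene directly follows the end of MT-CO1 with no base between and lies on the other strand, as shown from chrM:7416-7544 of GRCh38 on the + strand, with the bases of MT-TS1 in capitals.
MT-CO1 and MT-TS1: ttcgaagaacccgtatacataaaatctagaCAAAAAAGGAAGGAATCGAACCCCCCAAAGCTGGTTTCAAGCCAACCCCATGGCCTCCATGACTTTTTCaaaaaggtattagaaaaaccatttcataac
Whether counting used strand is not given in the sources used here. Without strand, a read from RNA of MT-CO1 that runs past its end and a read from MT-TS1 could not be told apart. Of the 4 called tRNA genes, 3 share an end with an mRNA gene with no base between, as do 2 of the 5 tested genes not called.

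By strand, 28 genes are read from the heavy-strand promoters and lie on the + strand of the reference, and 9 lie on the - strand and are read from the light-strand promoter. On the + strand 17 genes were tested, with 12 higher and 2 lower and a median log2 fold change of 0.70. On the - strand 7 were tested, with 4 higher and 3 not called and a median of 0.95. With the mitochondrial total as library size only MT-TS1 of those 4 kept its call. Among all tested genes 28.5% were higher and 31.2% lower. MT-ND6 (ENSG00000198695.2, chrM:14149-14673), a complex I subunit and the only mRNA gene on the - strand, had counts of 18524, 10683 and 21587 in VC and of 27704, 19233 and 19348 in VHL-KO. Its log2 fold change was 0.95 (SE 0.12, edgeR adjusted p = 2.9e-07). Of mitochondrial counts, genes on the - strand took 0.835%, 0.653% and 0.870% in VC and 0.902%, 0.903% and 0.892% in VHL-KO. VC replicate 2 was lowest, and the difference of means of 0.113 percentage points (two-sided exact permutation test, p = 0.1) fell to 0.0465 without it, although the groups did not overlap. Of all tRNA counts, 90.3% were on - strand genes, which number 8 of the 22. MT-ND5 and MT-ND6 meet end to end on opposite strands, as shown for chrM:14119-14178 of GRCh38 on the + strand, where capitals mark the last 30 bases of MT-ND6.
MT-ND5 and MT-ND6: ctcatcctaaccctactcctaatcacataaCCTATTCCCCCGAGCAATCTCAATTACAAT
Counts of MT-ND6 per 100 of MT-ND5 were 31.1, 25 and 29.9 in VC and 59.4, 57.6 and 51.3 in VHL-KO, without overlap (two-sided exact permutation test, p = 0.1). If strand was not used, antisense RNA at each - strand gene is part of its count, and its share was not tested.

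Along the map, change did not follow distance from the promoters in one direction. Downstream of the rRNAs on the + strand, log2 fold changes were 0.70 for MT-ND1 and 0.61 for MT-ND2, 0.49 for MT-CO1 and 1.11 for MT-CO2, then -1.65 for MT-ATP8 and 1.10 for MT-ATP6. Further on they were 0.61 for MT-CO3, 1.49 for MT-ND3, -0.72 for MT-ND4L, 0.80 for MT-ND4, -0.01 for MT-ND5 and 0.80 for MT-CYB. Neighbours such as MT-ATP8 and MT-ATP6 or MT-ND3 and MT-ND4L thus differed by far more than the SE of either, and both genes that were lower sit directly upstream of a partner that was higher. With the mitochondrial total as library size MT-ND1, MT-ND2 and MT-CO3 turned to -0.06, -0.14 and -0.15 and were not called. MT-CO1 went from higher to lower at -0.28 (adjusted p = 0.0432) and MT-ND5 was called lower at -0.76, while MT-CO2, MT-ATP6 and MT-ND3 were still higher and MT-ATP8 and MT-ND4L still lower.

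Gene length moved with the change across the nuclear genome. Among tested nuclear genes the median log2 fold change was 0.75 for 424 genes with up to 400 nt of exon, 0.54 for 1373 genes up to 1000 nt and 0.37 for 1796 genes up to 2000 nt. It was 0.09 for 4144 genes up to 4000 nt and -0.18 for 9594 longer genes. The 13 mRNAs measure 207 to 1812 nt, and 3064 nuclear genes in that range had a median of 0.48, with 32.8% higher and 9.92% lower. The mRNAs hold 39.6% to 47.7% GC, and 5861 nuclear genes in that GC range had a median of -0.23. For 845 nuclear genes within both ranges the median was 0.29, with 24.5% higher and 11.8% lower. Among the 1130 nuclear genes at least as abundant in CPM as the lowest of the 13 mRNAs, the median was 0.14, with 44.2% higher and 30.9% lower. With per-library offsets for GC content and length together, an alternative chosen after the data were seen, the median of the 13 mRNAs was 0.54 and the same 16 and 2 mitochondrial genes were called. MT-ATP8 and MT-ND4L, among the shortest mRNAs, moved against this length trend, at -1.62 and -0.89 with these offsets, while MT-ND3 stood at 1.43 and MT-ND1 and MT-CO3 at 0.43 and 0.34. What part length or GC content of the fragments had in the remaining differences was not tested.

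**Figure D5:**
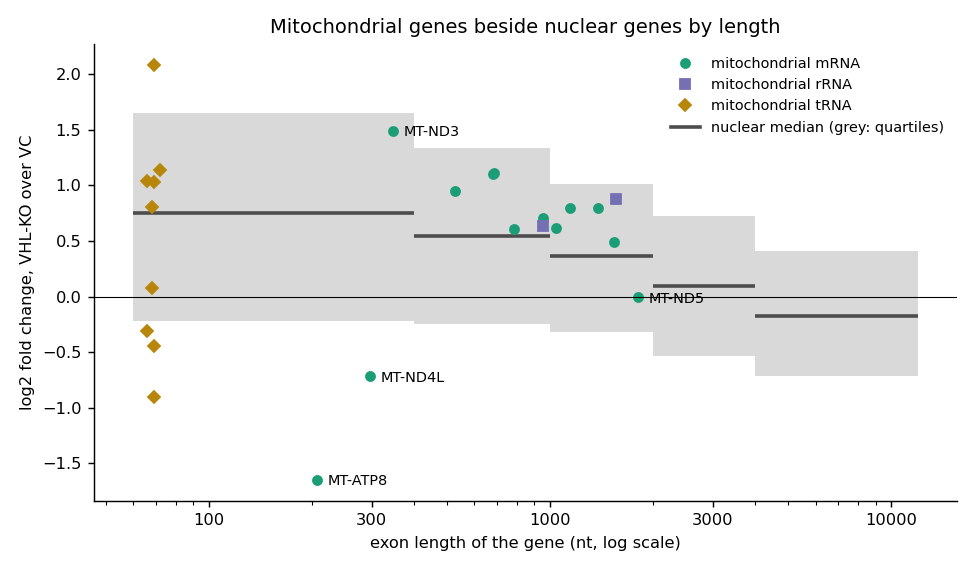
Log2 fold change of VHL-KO over VC (vertical axis) against exon length in nt (log scale) for the 24 tested mitochondrial genes (coloured points), over the median (dark lines) and quartiles (grey) of tested nuclear genes in 5 length classes. Nuclear medians fall from 0.75 in the shortest class to -0.18 in the longest, and of the mRNAs MT-ND4L and MT-ATP8 lie below the lower quartile of -0.22 of the shortest class, as do the tRNAs MT-TI, MT-TA and MT-TY, which were not called.

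Copies of mitochondrial sequence in the nuclear genome can share reads with these genes. The table listed 415 such copies, of which 369 had no count and 14 were tested, with 11 higher and 3 not called, where 28.5% of all tested genes were higher. On chromosome 1, 7 of them lie side by side over 5861 bases (chr1:629062-634922) and match their mitochondrial genes at 96.8% to 98.6% of bases. MTATP6P1, the copy of MT-ATP6, was by far the most abundant, with counts of 19981, 13829 and 19719 in VC and of 32409, 23181 and 22271 in VHL-KO. That is 17.7, 16.5 and 16.1 counts per 100 of MT-ATP6 in VC and 15.9, 17.5 and 16.5 in VHL-KO, so the copy moved in step with the mitochondrial gene (log2 fold change 1.09, SE 0.10, edgeR adjusted p = 5.5e-10). MTCO1P12, the copy of MT-CO1, had 0.164, 0.128 and 0.172 counts per 100 of MT-CO1 in VC and 0.237, 0.253 and 0.225 in VHL-KO, without overlap. MTND2P28, the copy of MT-ND2, had between 0.153 and 0.259 per 100 in all samples, with overlapping groups. MTATP8P1, the copy of MT-ATP8 in the same stretch, differs from it at 5 of 207 bases and had 0 counts in every sample. Because the authors kept reads that map to a single location, a read that fits a mitochondrial gene and its copy equally well was lost from both, so levels of MT-ATP6, MT-CO1 and the other copied genes are uncertain to that extent.

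Nuclear genes that serve mitochondrial RNA were taken from lists by role. Of 8 genes of transcription, 5 were lower and 3 not called, with a median log2 fold change of -0.64. Among all tested genes 28.5% were higher and 31.2% lower. TFAM, which packages mitochondrial DNA and opens its promoters, had 30.2, 23.4 and 39.1 CPM in VC and 9.35, 10.2 and 9.89 CPM in VHL-KO. TFB2M, a partner of the polymerase at the promoter, had 27.7, 23.4 and 31.7 CPM in VC and 11.1, 11.3 and 12.6 CPM in VHL-KO. Both were lower in every VHL-KO sample, with log2 fold changes of -1.66 (SE 0.15) and -1.24 (SE 0.14). POLRMT, the mitochondrial RNA polymerase, had 74.8, 92.5 and 68.8 CPM in VC and 72.6, 70.8 and 67.4 in VHL-KO, which overlap. Its log2 fold change of -0.16 (SE 0.11, edgeR adjusted p = 0.193) ranged from -0.71 with GC offsets to -0.01 without VC replicate 2, and it was called lower in 4 of the alternatives: library size alone (-0.35), GC offsets, GC and length offsets (-0.55), and VC replicate 3 left out (-0.24).

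Of 4 genes of RNA processing 2 were lower and 2 not called, with a median of -0.25. Over the alternatives other than the mitochondrial total that median ranged from -0.45 to -0.12, between 1 and 2 were lower and at most 1 was higher. ELAC2, which cuts tRNAs free at their 3′ ends, was at 108, 117 and 102 CPM in VC and 72.1, 78.6 and 80.3 CPM in VHL-KO, a log2 fold change of -0.50 (SE 0.09). Of 16 genes of mRNA stability and decay 1 was higher and 12 were lower, with a median of -0.62 that shrank to -0.26 with GC and length offsets, where 10 were lower. LRPPRC, which with SLIRP binds and stabilises most mitochondrial mRNAs, was at 183, 165 and 229 CPM in VC and 96.5, 95.1 and 95.2 CPM in VHL-KO. Its log2 fold change was -1.01 (SE 0.10), still called at -0.61 with GC offsets, and that of SLIRP was -0.52 (SE 0.11), a call that was lost with GC offsets at -0.16. FASTKD3 at -1.35 and PDE12, a nuclease that removes poly(A) tails in mitochondria, at -1.32 were also lower, while FASTK, a relative of FASTKD3 that is linked to the mRNA of ND6, was higher at 0.77 (0.36 with GC offsets). Of 12 genes of rRNA modification and ribosome assembly 1 was higher, the GTPase gene MTG1 at 0.60, and 4 were lower, with a median of -0.23. Over the same alternatives that median ranged from -0.43 to -0.12 and between 3 and 9 were lower, and the call for MTG1 was lost with GC offsets at 0.20. Of 10 genes of tRNA modification 6 were lower and 4 not called, with a median of -0.48, and between 5 and 9 were lower over the alternatives. Over all 50 genes 2 were higher and 29 lower with a median of -0.42, against 28.5% higher and 31.2% lower for all tested genes.

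Nuclear subunits of the same complexes were counted beside the mitochondrial ones. For complex I, 20 of 37 nuclear subunits were higher and 2 lower, with a median log2 fold change of 0.38 (0.18 with library size alone), beside 0.70 for the 7 mitochondrial mRNAs. Over the alternatives other than the mitochondrial total, between 16 and 24 of these subunits were higher and between 1 and 6 lower. For complex IV, 8 of 11 were higher and 3 not called with a median of 0.66, beside 0.61 for the 3 mitochondrial mRNAs. For complex III, 4 of 9 were higher and 2 lower (4 with GC and length offsets) with a median of 0.11, which turned to -0.08 with library size alone and was 0.22 when VC replicate 2 was left out, beside 0.80 for MT-CYB. For complex V, 7 of 17 were higher and 5 lower with a median of 0.07, which turned to -0.12 with library size alone, beside 1.10 for MT-ATP6 and -1.65 for MT-ATP8. In all, 39 of 74 were higher and 9 lower, with a median of 0.37, where 28.5% of all tested genes were higher and 31.2% lower. The 5 of 17 lower for complex V are thus near the portion of the whole table. These subunits were not compared with genes of like length. Tested nuclear genes of 400 to 1000 nt had a median of 0.54, with 30.9% higher and 7.36% lower. For those of 1000 to 2000 nt the median was 0.37, with 36.1% higher and 14.6% lower. What part gene length had in the calls on subunits was not tested. Among the subunits called, the highest log2 fold changes were 2.07 for NDUFB8 and 1.29 for ATP5MF, subunits of complexes I and V, and 1.12 for COX6A1 of complex IV. NDUFB8 was low, with a mean of 2.3 CPM in VC and 9.56 CPM in VHL-KO. COX6A1 had 15.7 and 34.3 CPM, and ATP5MF had 39.5 and 96.55 CPM. ATP5MF (chr7:99448475-99466186) overlaps PTCD1 (chr7:99416739-99466163) on the same strand. The part of read assignment in its counts was not tested. The lowest log2 fold changes among the subunits called were -0.80 for NDUFS1, which carries iron-sulfur clusters in complex I, -0.63 for ATP5PB and -0.58 for ATP5F1C, both of complex V. With GC offsets NDUFS1, ATP5PB and ATP5F1C kept their calls at -0.52, -0.26 and -0.34. These lists were not scaled to the mitochondrial total, which moves the median of all tested genes to -0.77.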

How the data were processed

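Per the labels and the study's methods, the authors trimmed reads with Trim Galore and Cutadapt, kept those of 20 nt or more, aligned them with STAR to GRCh38.p13, kept reads mapped to a single location with SAMtools and used HTSeq to count reads per gene. What the authors deposited are raw counts of reads per gene and sample, without normalization. Annotation release, strandedness and counting mode are not given in the sources used here. Genes that reached 10 reads in 1 or more samples were compared by edgeR 4.0.16 in R 4.3.3 (TMM factors, quasi-likelihood F test, two-sided, Benjamini-Hochberg over all tested genes, threshold 0.05). SEs are the absolute log2 fold change over the square root of F. Shares and ratios of counts were computed per sample and compared with exact permutation tests (scipy 1.17.1). Positions, strands and exon lengths came from GENCODE 44, and sequences from GRCh38. The comparison was tested on simulated data.

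Named with values were the rRNAs and mRNAs, the 3 largest and 3 smallest called tRNA changes and the 3 most abundant tRNAs, the 3 largest calls in each direction per group of nuclear lists with 6 regulators, the 3 most abundant copies and VHL. Other genes were named after their values were seen. Members and lists were chosen with earlier results of these data known. Alternatives were DESeq2 1.42.0, RLE and upper quartile factors, library size alone, TMM without mitochondrial genes, the mitochondrial total as library size, both filters, each replicate left out, a replicate block, GC offsets and, chosen after the data were seen, GC and length offsets (natural splines, 5 degrees of freedom).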

Additional observations from a re-analysis of the deposited data

How the results depend on the processing

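Under the 16 alternatives other than the mitochondrial total, all 18 called mitochondrial genes kept direction and call, and MT-TW, named after its values were seen, was also called with GC offsets and where 10 reads were required in all samples. With the mitochondrial total as library size, which by construction compares genes with the mitochondrial pool, 1511 genes were higher and 10247 lower across the table, 4 and 8 among mitochondrial genes, and the median of the 13 mRNAs was -0.06. Log2 fold changes then reversed for MT-RNR1 (-0.14), MT-ND1 (-0.06), MT-ND2 (-0.14), MT-CO1 (-0.28), MT-CO3 (-0.15) and MT-TP (-0.67), with MT-CO1 and MT-TP called lower. The log2 ratio of the MT-RNR1 share of mitochondrial counts was 0.09 when VC replicate 2 was left out. The median of the 13 mRNAs was 0.51 with library size alone and 0.54 with GC and length offsets, and otherwise ranged from 0.62 to 0.82. The mitochondrial share of all counts differed by 3.97 percentage points without the 20 most abundant nuclear genes in the denominator and by 2.63 for mRNA genes alone.

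The VHL log2 fold change was -0.22 with upper quartile factors (edgeR adjusted p = 0.0905). It ranged from -0.39 to -0.28 with each replicate left out and lost its call when VC replicate 1 (-0.28) or VHL-KO replicate 2 (-0.30) was left out. With library size alone it was -0.53 and with GC and length offsets -0.20, both called. Over the alternatives other than the mitochondrial total its adjusted p ran from 2.9e-04 to 0.0905. The cause was not tested.

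Replicate numbers gave no sign of pairing: deviations from the group mean correlated across genes at 0.0627, -0.00045 and 0.0282 between samples of the same number. With the replicate block, 16 mitochondrial genes were higher and 2 lower.

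Counts of tRNA genes are too low for small differences to be detectable at this depth.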
